A study of Homo sapiens with 12 samples.

Results

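The genes described here are HIF1A, which encodes the oxygen-regulated subunit of the transcription factor HIF-1, and 32 genes of glucose metabolism and of the response to low oxygen. They were chosen by name, with earlier results of these data known, so counts set beside all genes only describe them. They fall into 4 sets: HIF1A itself, 17 enzymes of glycolysis and lactate formation, 5 genes of glucose uptake and glycolytic control, and 10 other targets of HIF. All 33 were found by their Ensembl identifiers among the 20263 genes of both deposited expression tables. Transcripts were measured by mRNA sequencing in 12 libraries from HCT116 and RKO, established human colorectal cancer cell lines. HCT116 cells overexpressing CKAP2L, which encodes a protein of the mitotic spindle (labelled CKAP2L, 3 libraries), were set against HCT116 control cells labelled vector (3 libraries). RKO cells with a knockdown of the same gene (labelled shCKAP2L, 3 libraries) were set against RKO cells labelled NC, the negative control (3 libraries).

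The series title connects CKAP2L with STAT3, AREG, EGFR and smoking in colorectal cancer. The comparisons address how transcripts of this metabolic program stood when CKAP2L was raised in HCT116 and when it was lowered in RKO. The promoter of the overexpression construct, the number of hairpins, the oxygen and glucose in culture, and whether each line was a clone or a pool are stated in none of the labels. For the second and last RKO shCKAP2L libraries (replicates 2 and 3) the genotype field reads shCKAP3L and shCKAP4L, while their titles read shCKAP2L and were followed. No label says that libraries of a group came from separate cultures, so the p-values measure library-to-library spread only, part or all of which may be technical.

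When oxygen is plentiful, prolyl hydroxylases of the EGLN family mark the HIF-1 alpha protein for the VHL ubiquitin ligase, which has it destroyed. When oxygen is low the protein accumulates, pairs with ARNT, binds DNA at a core of A or G followed by CGTG, and raises genes for glucose uptake, glycolysis, lactate formation, blood vessel growth and mitochondrial turnover. The protein is controlled mainly by its stability, which an mRNA library does not measure. In colorectal cancers glycolysis is often active even with oxygen present, and many glycolytic genes are also targets of MYC.

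CKAP2L itself had 231.0, 230.5 and 219.0 TPM in CKAP2L libraries, against 14.2, 12.8 and 15.2 TPM in vector libraries of HCT116 (log2 change 3.93 ± 0.053, adjusted p = 1.41e-15). In RKO it had 7.59, 7.82 and 8.56 TPM in shCKAP2L libraries, against 24.9, 24.0 and 25.8 TPM in NC libraries (log2 change -1.53 ± 0.048, adjusted p = 1.21e-12). Both changes run the way the labels say, although reads of the inserted construct and of the native gene cannot be told apart. Between 14181 and 16684 genes per library had a value above 0, and the number of reads behind each value is unknown. Of 12 colon epithelium markers, 11 had values, and of these 7 reached a mean of 1 TPM in HCT116 and 4 (EPCAM, KRT8, KRT18 and CDX2) in RKO. CDH1, a defining marker, had a mean of 141.3 TPM with CKAP2L and 131.3 TPM with vector in HCT116 and was listed at 0 in all 6 RKO libraries. The summed epithelial markers were 6335 to 6404 TPM with CKAP2L and 6965 to 7342 TPM with vector in HCT116, and 149.2 to 158.3 TPM with shCKAP2L and 197.7 to 209.2 TPM with NC in RKO. Of the lists for fibroblasts, immune cells and endothelium, only COL1A1 and CD68 reached 1 TPM in any group. COL1A1 averaged 46.6 TPM with CKAP2L, 41.36 TPM with vector, 0.88 TPM with shCKAP2L and 1.003 TPM with NC. CD68 averaged 27.74 TPM with CKAP2L and 31.28 TPM with vector. In RKO CD68 averaged 1065 TPM with shCKAP2L and 1042 TPM with NC, above the summed epithelial markers there. The part of these marker differences in the results was not tested.

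Values are TPM (length-scaled shares of all transcripts in a library), and fold changes are differences of group means on the log2(TPM + 1) scale with their standard error (± SE, n = 3 libraries a group). They come from limma, with p-values adjusted by the Benjamini-Hochberg method over all genes of a line with a mean of at least 1 TPM. A gene is said to have risen or fallen where the adjusted p was under 0.05. A lower value in a culture may come from fewer cells with the transcript or from less of it per cell, and these cannot be told apart. The 2 tables were made separately, so levels are set beside each other across lines but not tested.

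Promoter stretches are shown for 4 genes picked by their changes. DDIT4 changed most among the members and in opposite directions in the lines, and LDHA fell in both. HK1 and HK2 are isozymes that take different shares of hexokinase in the RKO groups. The sequences are from RefSeq (GRCh38.p14), plus strand, and run toward the annotated transcription start, stopping before the first base that GENCODE 29 places in an exon. Capitals mark ACGTG and GCGTG, the HIF core, on either strand, where CACGT and CACGC are their reverse complements.
DDIT4, chr10:72273674-72273919: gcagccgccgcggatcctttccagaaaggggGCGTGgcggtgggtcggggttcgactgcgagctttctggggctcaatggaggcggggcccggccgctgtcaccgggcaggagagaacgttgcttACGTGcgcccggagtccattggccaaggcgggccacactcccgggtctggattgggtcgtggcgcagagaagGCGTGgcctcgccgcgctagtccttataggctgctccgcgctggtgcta
LDHA, chr11:18394313-18394387: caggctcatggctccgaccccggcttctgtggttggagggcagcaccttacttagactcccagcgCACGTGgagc
HK1, the most upstream of its annotated starts, chr10:69269750-69269983: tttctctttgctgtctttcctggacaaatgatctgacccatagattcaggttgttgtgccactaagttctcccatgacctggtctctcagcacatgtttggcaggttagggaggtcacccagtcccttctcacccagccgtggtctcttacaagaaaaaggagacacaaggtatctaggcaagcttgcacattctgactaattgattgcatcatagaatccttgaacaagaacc
HK2, the downstream of its annotated starts, chr2:74834920-74835169: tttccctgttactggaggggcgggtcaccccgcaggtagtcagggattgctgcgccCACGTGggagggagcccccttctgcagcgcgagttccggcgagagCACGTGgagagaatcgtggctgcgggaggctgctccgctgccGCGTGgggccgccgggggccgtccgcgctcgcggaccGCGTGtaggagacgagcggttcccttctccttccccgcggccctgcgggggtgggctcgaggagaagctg
The DDIT4 stretch of 246 bases held 1 ACGTG and 2 GCGTG matches. The LDHA stretch of 75 bases held a single CACGTG, which counts as 2 ACGTG matches because it reads the same on both strands. The HK1 stretch of 234 bases held neither core. The HK2 stretch of 250 bases held 4 ACGTG matches, in 2 CACGTG motifs, and 2 GCGTG matches. HK1, HK2 and LDHA have other annotated starts, and values per gene do not show which start these cells used.

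Over the whole RefSeq table, counting 250 bases upstream of each start, 30 members had 54 windows, and SLC2A3, VEGFA and NDRG1 had none. ACGTG was found in a window of 18 of the 30 members, and in 21 of the 54 windows, against 18.5% of all 35116 windows. Either core was found in a window of 25 members, against 43.2% of all windows, where a member with several windows has more chances. Unlike the printed stretches, these windows were not cut at exons, and 42 of the 54 held a base of an annotated exon. LDHA's full upstream window had the most ACGTG matches of the member windows, 5, a count reached by 0.177% of windows. Its 2 CACGTG motifs count on both strands, and 175 of its 250 bases lie in annotated exons. None of the 7 windows of HK1 held ACGTG and 1 held GCGTG. A match describes letters only, and no binding was measured.

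In HCT116 cells with CKAP2L, 5 of the 32 members that could be tested rose (HIF1A, VEGFA, ADM, ANKRD37 and DDIT4) and 10 fell, all but NDRG1 of them glycolytic enzymes. Of all 12732 genes tested in this line, 20.6% passed, 16.4% higher and 4.26% lower. The members' median log2 fold change was -0.02, beside 0.05 over all genes. With the TPM rescaled by median of ratios, by quantiles or without mitochondrially encoded genes, 3 members rose and 12 fell, and the genes higher and lower over the whole table became 1119 and 1203, 1103 and 1131, and 1175 and 976, against 2082 and 543 as deposited. Mitochondrially encoded mRNAs took 25.91 ± 0.214% of all TPM with CKAP2L and 28.33 ± 0.266% with vector (SD, n = 3 each), and their part in the members' changes beyond this rescaling was not tested. Without vector replicate 1 the members that passed numbered 9 rather than 15. Only 3 rose without CKAP2L replicate 1, CKAP2L replicate 3 or vector replicate 1, and only 6 fell without CKAP2L replicate 2 or vector replicate 1.

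In RKO cells with shCKAP2L, 9 of 32 tested members rose and 10 fell, with changes of up to 1.07 upward for HK1 and -1.19 for DDIT4. Of all 11442 genes tested in this line, 68.5% passed, 26.4% higher and 42.1% lower, so passing the test is common there. The members' median log2 fold change was 0.00, beside -0.05 over all genes. Mitochondrially encoded mRNAs took 23.24 ± 0.697% of all TPM with shCKAP2L and 21.46 ± 1.05% with NC (SD, n = 3 each). CA9 in HCT116 and EGLN3 in RKO had a mean under 1 TPM and were not tested there.

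**Figure D1:**
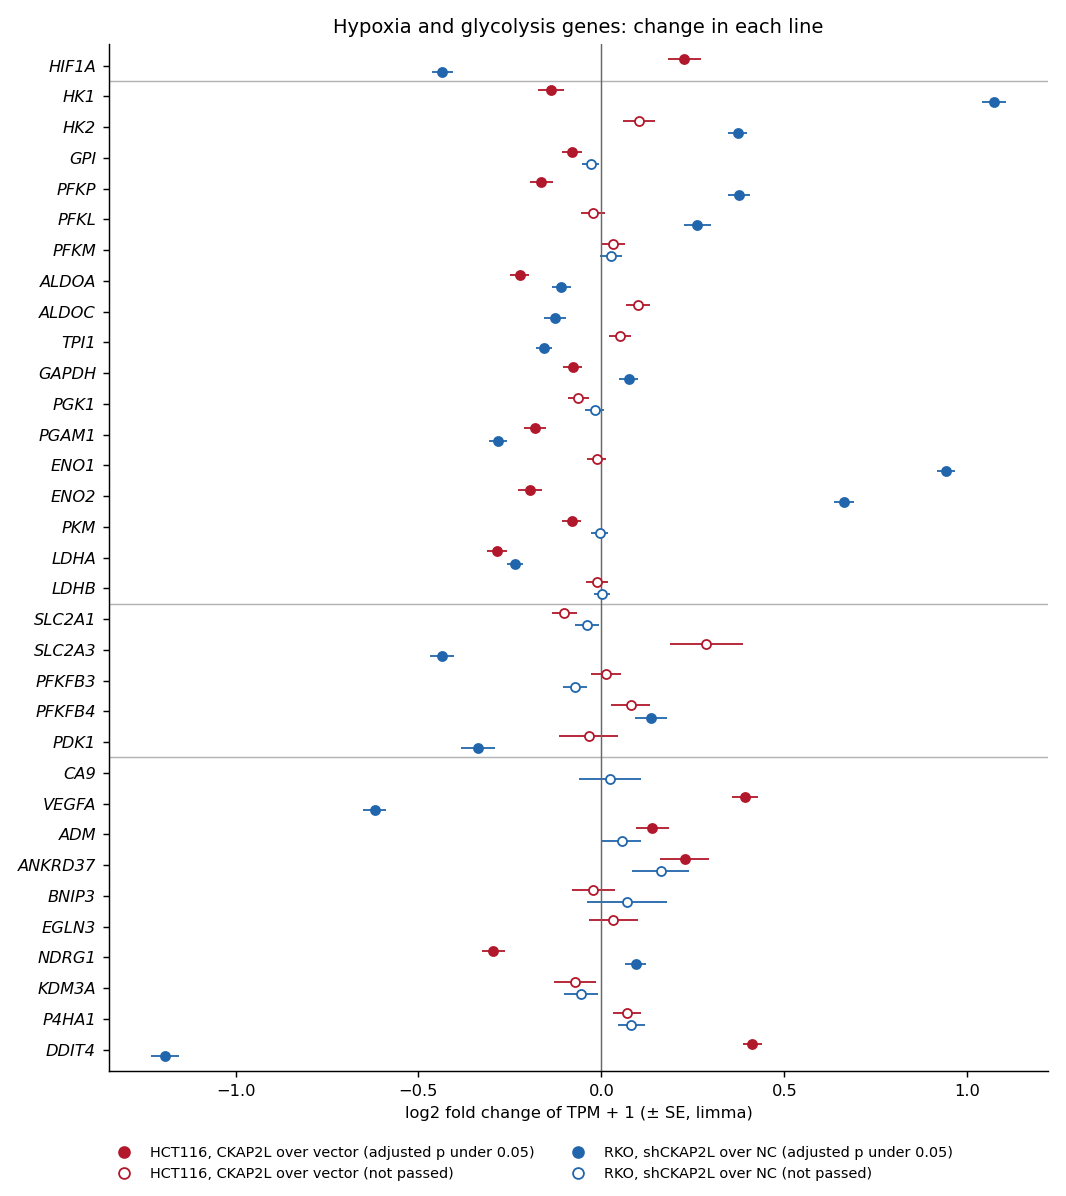
Log2 fold change of TPM + 1 (horizontal axis, bars ± SE) for each of the 33 members, with CKAP2L over vector in HCT116 in red and shCKAP2L over NC in RKO in blue, filled where the adjusted p was under 0.05. HK1 and ENO1 stand apart to the right in RKO at 1.07 and 0.94, and DDIT4 to the left at -1.19 against 0.41 in HCT116.

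HIF1A transcripts moved the way CKAP2L did in both lines. The gene is ENSG00000100644, at chr14:61695513-61748259 (plus strand) in GENCODE 29 on GRCh38, from which the positions of other genes also come. In HCT116 HIF1A had 112.8, 111.9 and 108.3 TPM in CKAP2L libraries, against 90.0, 92.0 and 102.4 TPM in vector libraries. The groups did not overlap, and HIF1A rose (log2 change 0.23 ± 0.045, adjusted p = 0.00317). In RKO HIF1A had 63.2, 61.9 and 64.2 TPM in shCKAP2L libraries, against 86.1, 84.7 and 86.2 TPM in NC libraries. All 3 shCKAP2L libraries lay far below the NC libraries, and HIF1A fell (log2 change -0.43 ± 0.028, adjusted p = 2.23e-09). A noncoding gene on the opposite strand, HIF1A-AS1, overlaps HIF1A exons, and since no strand setting is stated, reads of the pair cannot be told apart. Counting HIF1A, 16 of the 33 members have an exon overlapping some gene on the other strand. That gene is protein-coding for PFKM (SENP1), TPI1 (SPSB2), CA9 (ARHGEF39) and ANKRD37 (UFSP2).

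Among 16 tested genes that control HIF, 3 rose and 1 fell in HCT116, where 25.0% of them passed beside 20.6% of all genes. VHL, the substrate receptor of the ligase that destroys HIF alpha proteins, rose (97.81 TPM with CKAP2L and 78.89 TPM with vector, log2 change 0.31 ± 0.035, adjusted p = 4.02e-05), and HSP90AA1, a chaperone that stabilises HIF-1 alpha, fell (679.6 TPM with CKAP2L and 842.6 TPM with vector, log2 change -0.31 ± 0.034, adjusted p = 3.00e-05). CREBBP, a coactivator, had 28.56 TPM with CKAP2L and 23.11 TPM with vector (log2 change 0.30 ± 0.060, adjusted p = 0.00352). In RKO 5 of 16 rose and 6 fell, and the 68.8% that passed was close to the 68.5% of all genes. ARNT2, a neural relative of the HIF partner ARNT, rose (11.00 TPM with shCKAP2L and 6.517 TPM with NC, log2 change 0.67 ± 0.049, adjusted p = 9.38e-09). EGLN1, the main oxygen-sensing hydroxylase, fell (20.68 TPM with shCKAP2L and 27.04 TPM with NC, log2 change -0.37 ± 0.037, adjusted p = 3.70e-07), as did CITED2, which competes with HIF-1 alpha for coactivators (14.35 TPM with shCKAP2L and 18.23 TPM with NC, log2 change -0.33 ± 0.041, adjusted p = 4.70e-06).

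The glycolytic enzymes fell as often as not in HCT116. Of the 17, 9 fell (HK1, GPI, PFKP, ALDOA, GAPDH, PGAM1, ENO2, PKM and LDHA), 0 rose by limma's adjusted p and 2 were higher at an unadjusted p under 0.05. The 9 are 52.9% of the set, beside 4.26% of all genes lower in this line. No fall was larger than 0.29 on the log2 scale, and the median was -0.08 beside 0.05 over all genes. With an untrended prior variance, or without CKAP2L replicate 2 or vector replicate 1, 5 of the 17 fell. After rescaling by median of ratios, by quantiles or without mitochondrially encoded genes, 10 of the 17 fell. The share of all genes lower was then 9.45%, 8.88% and 7.67%. The 17 together took 1.271 ± 0.0125% of all TPM with CKAP2L and 1.341 ± 0.00373% with vector (SD, n = 3 each). In RKO the enzymes split: 7 rose (HK1, HK2, PFKP, PFKL, GAPDH, ENO1 and ENO2) and 5 fell (ALDOA, ALDOC, TPI1, PGAM1 and LDHA), with a median of 0.00. The 70.6% that passed was close to the 68.5% of all genes there, with 41.2% higher and 29.4% lower beside 26.4% and 42.1% of all genes. Their summed share was 1.194 ± 0.0215% with shCKAP2L and 1.108 ± 0.0108% with NC. Most of that difference lay in ENO1 alone, which averaged 1741 TPM with shCKAP2L and 906.1 TPM with NC.

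**Figure D2:**
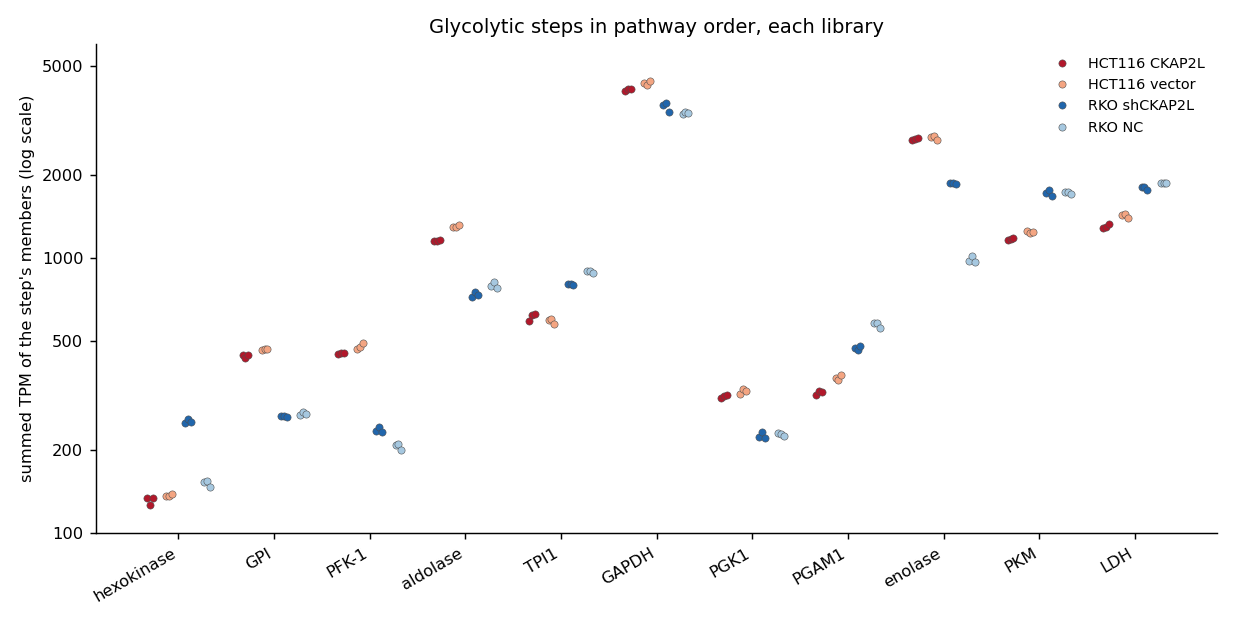
Summed TPM of the member enzymes of each glycolytic step (vertical axis, log scale) in pathway order, 1 point per library, in the 4 groups. Hexokinase and enolase are the steps where the RKO groups lie farthest apart, with means of 255.2 TPM with shCKAP2L against 151.7 TPM with NC and of 1872 TPM with shCKAP2L against 988.5 TPM with NC.

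Hexokinases trap glucose in the cell as glucose 6-phosphate. HK1 is the widely expressed form and HK2 the inducible form that many tumours use. HK1 lies at chr10:69269984-69401884 and HK2 at chr2:74833981-74893359, both on the plus strand. In RKO HK1 had 148.9, 153.3 and 150.5 TPM in shCKAP2L libraries, against 72.6, 73.9 and 67.5 TPM in NC libraries. All shCKAP2L libraries lay far above all NC libraries, with a ratio of means of 2.12 (log2 change 1.07 ± 0.033, adjusted p = 9.19e-13). HK2 had 103.0, 107.2 and 102.8 TPM in shCKAP2L libraries, against 80.6, 80.4 and 80.1 TPM in NC libraries. It rose too, by less (log2 change 0.37 ± 0.027, adjusted p = 1.09e-08). In HCT116 HK1 had 88.5, 83.9 and 89.1 TPM in CKAP2L libraries, against 97.0, 94.4 and 96.7 TPM in vector libraries. The groups lay close without overlapping and HK1 fell (log2 change -0.14 ± 0.036, adjusted p = 0.0160), although not without CKAP2L replicate 2 (adjusted p = 0.0960) or vector replicate 1 (adjusted p = 0.0569). HK2 had 45.2, 42.9 and 45.1 TPM in CKAP2L libraries, against 39.7, 42.0 and 42.2 TPM in vector libraries. Those groups did not overlap either, but the difference did not pass (log2 change 0.10 ± 0.043, adjusted p = 0.107).

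GPI turns glucose 6-phosphate into fructose 6-phosphate. It averaged 440.4 ± 4.93 TPM with CKAP2L and 466 ± 2.04 TPM with vector in HCT116 (SD, n = 3 each) and fell (log2 change -0.08 ± 0.027, adjusted p = 0.0466), a call lost without any 1 library but vector replicate 3 (adjusted p from 0.102 to 0.187). In RKO GPI averaged 266.6 ± 0.911 TPM with shCKAP2L and 272.1 ± 4.28 TPM with NC and did not pass (adjusted p = 0.275).

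Phosphofructokinase-1 commits the sugar to glycolysis and is built from the platelet (PFKP), liver (PFKL) and muscle (PFKM) forms. PFKP had 77.1, 77.3 and 75.6 TPM in shCKAP2L libraries, against 60.9, 57.9 and 57.7 TPM in NC libraries of RKO. It rose there (log2 change 0.38 ± 0.030, adjusted p = 2.83e-08). In HCT116 PFKP had 232.7, 232.2 and 234.3 TPM in CKAP2L libraries, against 252.5, 261.2 and 270.3 TPM in vector libraries. It fell there, with CKAP2L libraries within 3 TPM of each other and all below the vector libraries (log2 change -0.16 ± 0.032, adjusted p = 0.00274). PFKL rose in RKO, where it had 61.7, 65.8 and 61.6 TPM in shCKAP2L libraries, against 53.4, 54.1 and 49.7 TPM in NC libraries (log2 change 0.26 ± 0.037, adjusted p = 1.41e-05). It averaged 138.8 ± 2.03 TPM with CKAP2L and 141 ± 4.07 TPM with vector in HCT116 and did not pass (adjusted p = 0.679). PFKM did not pass in either line, at log2 fold changes of 0.03 ± 0.034 in HCT116 and 0.02 ± 0.030 in RKO, but passed as higher in RKO after each rescaling (adjusted p from 0.00531 to 0.0437).

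Aldolases split the phosphorylated sugar into trioses. ALDOA, the ubiquitous form, had 956.2, 957.1 and 958.6 TPM in CKAP2L libraries, against 1111.9, 1101.7 and 1140.6 TPM in vector libraries of HCT116. The CKAP2L libraries were nearly identical and all were lower, and ALDOA fell (log2 change -0.22 ± 0.026, adjusted p = 5.14e-05). It also fell in RKO, with 672.9, 699.5 and 684.3 TPM in shCKAP2L libraries, against 737.8, 762.8 and 720.0 TPM in NC libraries (log2 change -0.11 ± 0.026, adjusted p = 0.00144). ALDOC, the brain-enriched form, averaged 201.4 ± 6.28 TPM with CKAP2L and 187.9 ± 4.11 TPM with vector in HCT116 and stood just beyond the threshold (log2 change 0.10 ± 0.033, adjusted p = 0.0502). In RKO it averaged 51.39 ± 0.789 TPM with shCKAP2L and 56.2 ± 1.12 TPM with NC and fell (log2 change -0.13 ± 0.030, adjusted p = 0.00147), though not after quantile normalization (adjusted p = 0.158). TPI1, which interconverts the trioses, fell in RKO, with 806.8, 803.4 and 796.4 TPM in shCKAP2L libraries, against 898.3, 901.0 and 885.7 TPM in NC libraries (log2 change -0.16 ± 0.022, adjusted p = 9.92e-06). TPI1 did not pass in HCT116 (log2 change 0.05 ± 0.031, adjusted p = 0.271).

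The steps that yield ATP and NADH differed little between groups. GAPDH, which makes the first NADH and is often used as a loading control, had the highest TPM of the members in all 4 groups, averaging 4097 ± 42.5 TPM with CKAP2L and 4329 ± 84.6 TPM with vector in HCT116 and 3546 ± 129 TPM with shCKAP2L and 3367 ± 32.7 TPM with NC in RKO. Its changes were -0.08 ± 0.027 (adjusted p = 0.0485) and 0.07 ± 0.027 (adjusted p = 0.0232). The RKO call was lost without shCKAP2L replicate 1 or 2 or NC replicate 1 or 3 (adjusted p from 0.0587 to 0.115), and the HCT116 call without any 1 library but vector replicate 3 (0.0571 to 0.189). Pseudogenes named after GAPDH number 62 in GENCODE 29, so its values are uncertain, and 10 of the 17 enzymes have at least 1. PGK1, which makes the first ATP, did not pass in HCT116 (log2 change -0.06 ± 0.029, adjusted p = 0.137) or in RKO (log2 change -0.02 ± 0.026, adjusted p = 0.554), but passed as lower in HCT116 after each of the 3 rescalings (adjusted p from 0.0123 to 0.0215). PKM, pyruvate kinase, averaged 1174 ± 11.3 TPM with CKAP2L and 1243 ± 12.3 TPM with vector in HCT116 and fell (log2 change -0.08 ± 0.026, adjusted p = 0.0375), a call lost without any 1 library but vector replicate 3 (0.0653 to 0.154). It averaged 1724 ± 39.6 TPM with shCKAP2L and 1729 ± 21.5 TPM with NC in RKO and did not pass (adjusted p = 0.870). Values per gene do not separate the PKM1 and PKM2 splice forms.

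PGAM1, the phosphoglycerate mutase, fell in both lines. In RKO it had 470.1, 464.3 and 478.1 TPM in shCKAP2L libraries, against 582.1, 579.9 and 557.6 TPM in NC libraries, with all shCKAP2L libraries lower (log2 change -0.28 ± 0.024, adjusted p = 6.80e-08). In HCT116 it had 316.9, 329.9 and 327.0 TPM in CKAP2L libraries, against 367.5, 361.6 and 374.9 TPM in vector libraries, also without overlap (log2 change -0.18 ± 0.030, adjusted p = 0.000817). GENCODE 29 names 13 pseudogenes after it.

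Enolases make phosphoenolpyruvate, ENO1 being the general and ENO2 the neuronal form. ENO1, at chr1:8861000-8879250 (minus strand), had the second highest level of the enzymes in HCT116. In RKO ENO1 had 1740.5, 1747.2 and 1735.7 TPM in shCKAP2L libraries, against 893.6, 934.6 and 889.9 TPM in NC libraries. The groups lay far apart, at a ratio of 1.92 (log2 change 0.94 ± 0.024, adjusted p = 2.03e-13). In HCT116 ENO1 averaged 2613 ± 16.1 TPM with CKAP2L and 2637 ± 44.3 TPM with vector (SD, n = 3 each) and did not pass (log2 change -0.01 ± 0.026, adjusted p = 0.759), though it did after quantile normalization, at -0.08 (adjusted p = 0.0109). ENO1-AS1 overlaps its exons on the other strand. ENO2 had 129.4, 133.2 and 131.0 TPM in shCKAP2L libraries, against 82.9, 83.7 and 80.8 TPM in NC libraries of RKO. It rose by a ratio of 1.59 (log2 change 0.66 ± 0.027, adjusted p = 1.41e-11). In HCT116 ENO2 had 92.3, 95.1 and 94.4 TPM in CKAP2L libraries, against 105.8, 108.7 and 108.3 TPM in vector libraries. Here it fell, again without overlap (log2 change -0.19 ± 0.033, adjusted p = 0.00116).

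Lactate dehydrogenase reduces pyruvate to lactate, the A subunit being the classical HIF target and the B subunit favouring the reverse reaction. LDHA lies at chr11:18394388-18408425 (plus strand). LDHA had 521.9, 523.7 and 518.9 TPM in CKAP2L libraries, against 635.1, 649.7 and 623.3 TPM in vector libraries of HCT116. All CKAP2L libraries lay below all vector libraries, and LDHA fell (log2 change -0.29 ± 0.028, adjusted p = 8.42e-06). In RKO LDHA had 410.7, 411.4 and 410.3 TPM in shCKAP2L libraries, against 490.1, 477.6 and 483.9 TPM in NC libraries. It fell there too (log2 change -0.24 ± 0.022, adjusted p = 1.71e-07). LDHB did not pass in HCT116 (log2 change -0.01 ± 0.030, adjusted p = 0.818) or in RKO (log2 change 0.00 ± 0.022, adjusted p = 0.928).

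**Figure D3:**
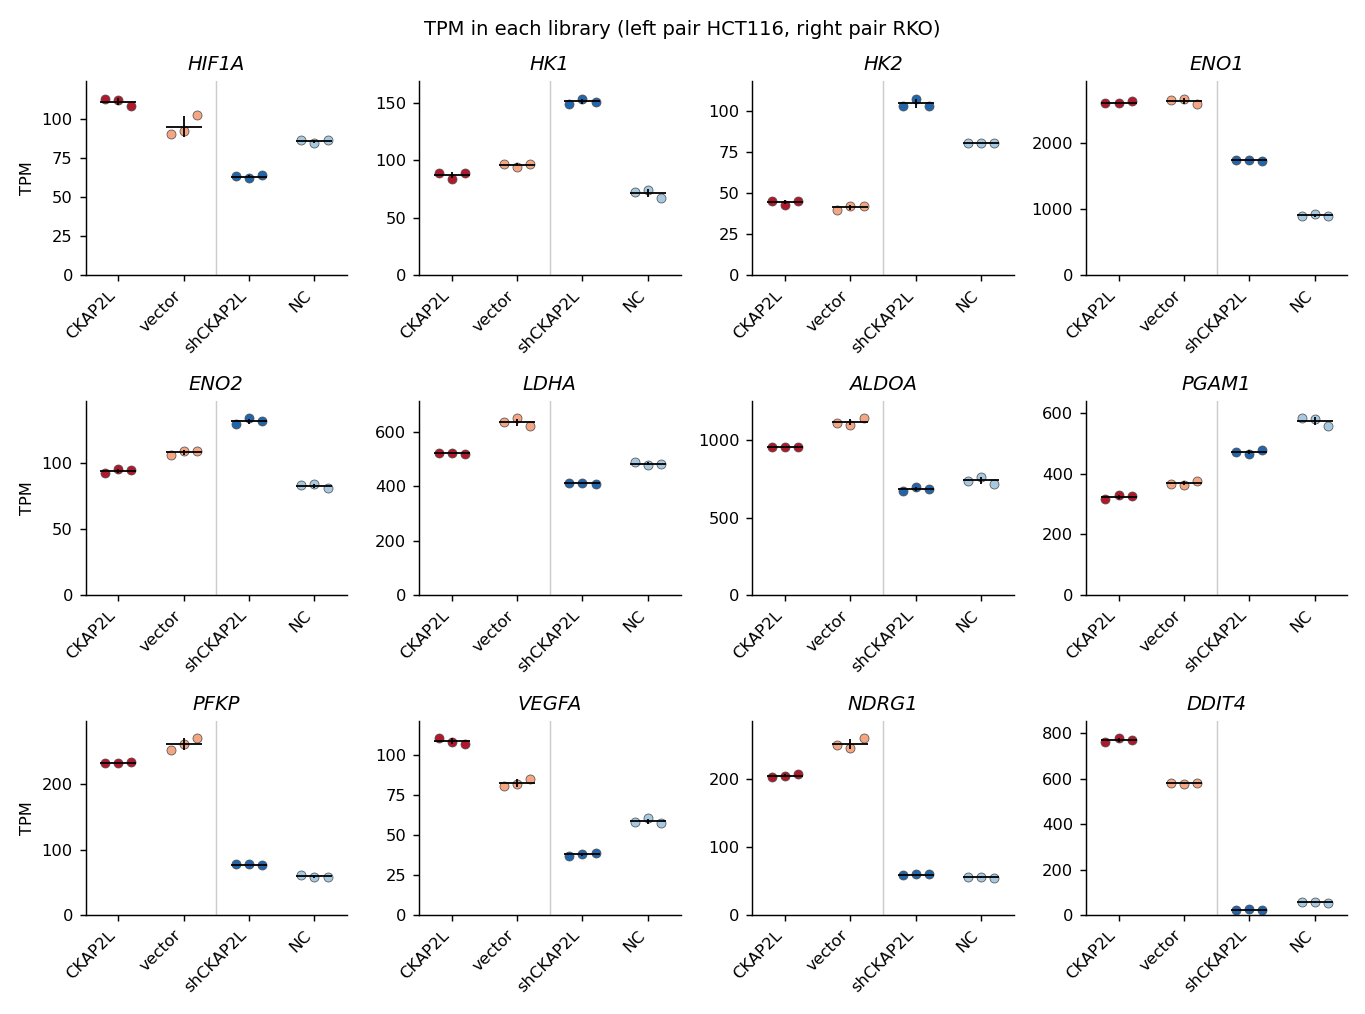
TPM in each library (points, linear axis from 0) with group means and SD for 12 members, HCT116 at left and RKO at right of the grey line in each panel. HK1, ENO1 and ENO2 are higher with shCKAP2L than with NC, while HIF1A, VEGFA and DDIT4 are higher with CKAP2L than with vector and lower with shCKAP2L than with NC.

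Shares of isozymes within a family, in percent of the family's summed TPM in a library, do not depend on library scaling. Of 17 shares in each line, 12 did not overlap between groups in HCT116 and 13 in RKO. Of single genes, 37.3% and 71.4% did not overlap, but a gene's own level is a different measure. Shares within a family are bound to each other, so the same shift can be counted more than once. With 3 libraries against 3 the exact two-sided permutation p cannot go below 0.1, and that was the value for each non-overlapping share (0.136 after adjustment over 34 shares). No share therefore passed.

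Of the 17 shares, those of the hexokinases stood farthest apart between groups in RKO and those of the lactate dehydrogenases in HCT116. In RKO HK1 made 59.1, 58.8 and 59.4% of hexokinase TPM in shCKAP2L libraries, against 47.4, 47.9 and 45.7% in NC libraries. HK2 was thus the smaller form with shCKAP2L, at a mean of 40.8%, and the larger with NC, at 53.0%. In HCT116 HK1 averaged 63.2 ± 0.346% with CKAP2L and 67.5 ± 1.00% with vector (SD, n = 3 each). HK2 made 32.2% with CKAP2L, 3.20 percentage points more than with vector, and HKDC1, a further hexokinase, 4.35% with CKAP2L and 3.28% with vector.

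PFKP made 51.8 ± 0.281% of phosphofructokinase-1 TPM with CKAP2L and 54.6 ± 0.540% with vector in HCT116, and 32.3 ± 0.513% with shCKAP2L and 28.4 ± 0.806% with NC in RKO. PFKM was the largest form in RKO, at 41.1% with shCKAP2L and 46.3% with NC, and the smallest in HCT116, at 17.4% with CKAP2L and 16.0% with vector. ALDOA made 82.6% of aldolase with CKAP2L and 85.6% with vector, while in RKO it averaged 92.9% in both groups, which overlapped. ENO1 stayed above 90% of enolase in all libraries, at 95.7% with CKAP2L and 95.4% with vector, and at 92.5% with shCKAP2L and 90.8% with NC. LDHA made 40.0% of lactate dehydrogenase with CKAP2L and 44.7% with vector, and 22.8% with shCKAP2L and 25.8% with NC, so that LDHB was the larger subunit in every group.

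**Figure D4:**
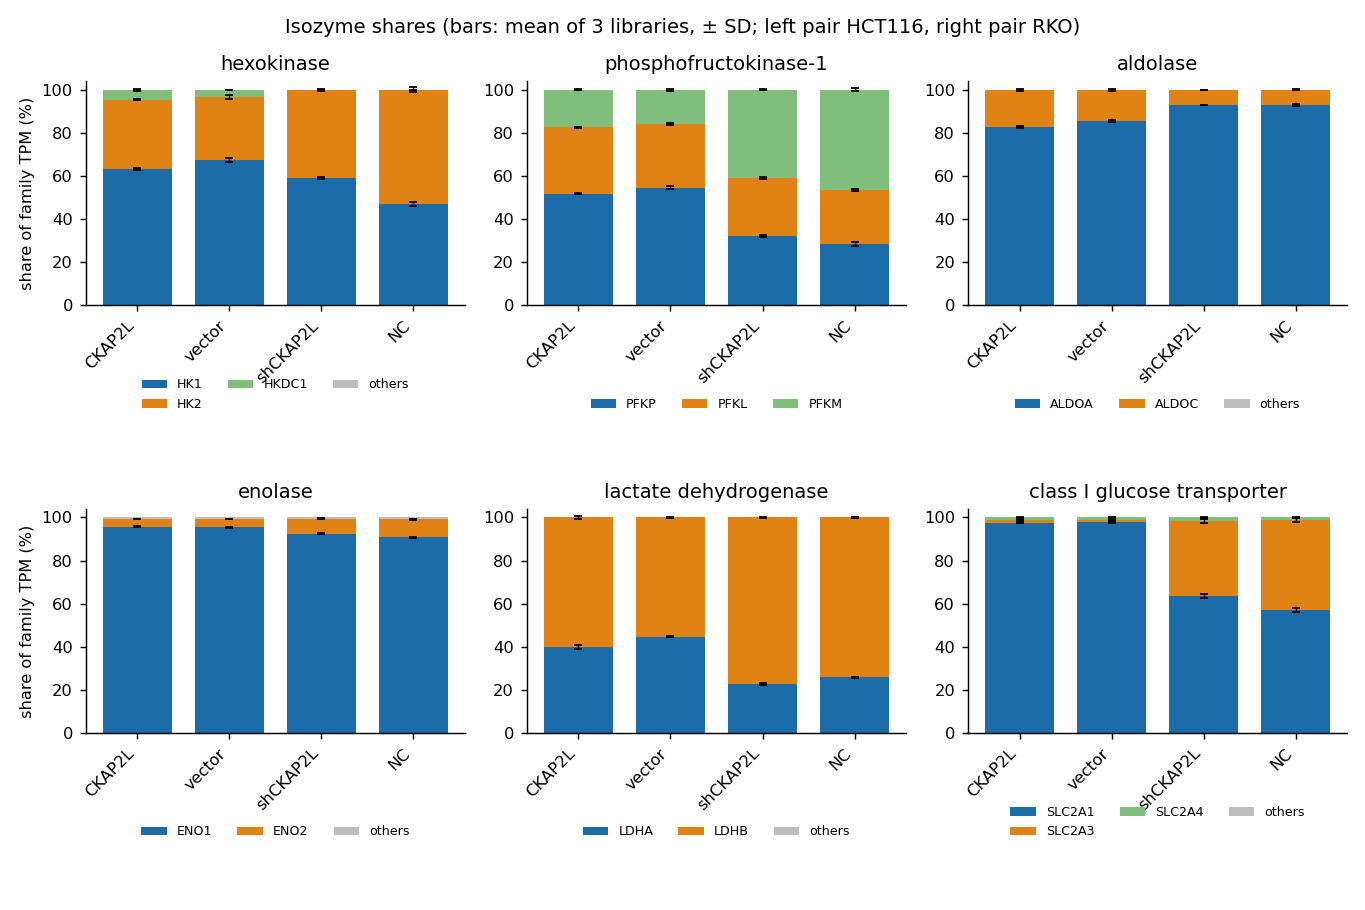
Mean share of each isozyme in its family's summed TPM (vertical axis, percent, bars ± SD over 3 libraries) in 6 families and the 4 groups, HCT116 pair first. HK1 makes 59.1% of hexokinase in RKO with shCKAP2L against 47.0% with NC, and LDHA 40.0% of lactate dehydrogenase in HCT116 with CKAP2L against 44.7% with vector.

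None of the 5 genes of glucose uptake and glycolytic control passed limma's adjusted threshold in HCT116, where 1 was higher and 1 lower at an unadjusted p under 0.05. In RKO 1 rose and 2 fell. SLC2A1 (GLUT1, the general glucose carrier) averaged 255.9 ± 1.75 TPM with CKAP2L and 274.7 ± 13.1 TPM with vector in HCT116 and 69.64 ± 0.165 TPM with shCKAP2L and 71.68 ± 3.28 TPM with NC in RKO and did not pass (adjusted p = 0.0555 and adjusted p = 0.294). It passed as lower in HCT116 after each rescaling (0.00683 to 0.0447) or without vector replicate 2 (0.0212), and as lower in RKO without NC replicate 3 (0.0169). SLC2A3 (GLUT3, a carrier of high affinity) had 36.6, 38.6 and 39.1 TPM in shCKAP2L libraries, against 52.8, 51.8 and 51.2 TPM in NC libraries of RKO. It fell there (log2 change -0.44 ± 0.033, adjusted p = 1.61e-08). In HCT116 it was low, with 3.06, 3.60 and 3.54 TPM in CKAP2L libraries, against 2.31, 2.48 and 3.06 TPM in vector libraries, where 3.06 TPM occurs in both groups and the difference did not pass (log2 change 0.29 ± 0.10, adjusted p = 0.0624) unless vector replicate 3 was left out (0.37, adjusted p = 0.0181). SLC2A1 made 63.6% of class I glucose transporter TPM with shCKAP2L and 57.2% with NC, and SLC2A3 34.8% with shCKAP2L and 41.5% with NC, whereas in HCT116 SLC2A1 made 97.6% with CKAP2L and 97.7% with vector.

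PDK1, which shuts pyruvate out of the mitochondrial citric acid cycle by inhibiting pyruvate dehydrogenase, had 7.54, 7.95 and 7.74 TPM in shCKAP2L libraries, against 10.2, 9.83 and 10.1 TPM in NC libraries of RKO. It fell (log2 change -0.34 ± 0.047, adjusted p = 1.13e-05), and its share of the PDK family was 23.1% with shCKAP2L and 27.6% with NC. In HCT116 PDK1 averaged 4.393 ± 0.217 TPM with CKAP2L and 4.527 ± 0.289 TPM with vector and did not pass (adjusted p = 0.804). PFKFB3 and PFKFB4 make fructose 2,6-bisphosphate, the activator of phosphofructokinase-1. PFKFB3 did not pass in either line, at 0.01 ± 0.042 in HCT116 and -0.07 ± 0.032 in RKO (adjusted p = 0.0584). PFKFB4 rose in RKO, with 15.4, 15.0 and 15.0 TPM in shCKAP2L libraries, against 13.4, 14.3 and 13.3 TPM in NC libraries (log2 change 0.14 ± 0.043, adjusted p = 0.0110), and did not pass in HCT116 (log2 change 0.08 ± 0.053, adjusted p = 0.303). PFKFB2, an isozyme outside the 33 genes, rose in RKO (7.230 TPM with shCKAP2L and 3.587 TPM with NC, log2 change 0.84 ± 0.055, adjusted p = 2.61e-09) and made 12.0% of the PFKFB family with shCKAP2L and 6.32% with NC, while PFKFB3 made 61.9% with shCKAP2L and 68.9% with NC.

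Of the 10 other HIF targets, 9 could be tested in each line. In HCT116 4 rose and 1 fell, at a median of 0.07. In RKO 1 rose and 2 fell, at a median of 0.06. Of the tested targets 55.6% passed in HCT116, beside 20.6% of all genes, and 33.3% in RKO, beside 68.5%. In HCT116 only 2 rose after each of the 3 rescalings, with no filter on low values, or without CKAP2L replicate 1, CKAP2L replicate 3 or vector replicate 1. In RKO 2 or 3 rose after rescaling, 2 with an untrended prior variance or without NC replicate 1, and 0 without shCKAP2L replicate 2. Within this set DDIT4 and VEGFA changed most in both lines. DDIT4 (REDD1, chr10:72273920-72276036, plus strand), which restrains the growth kinase complex mTORC1 and is induced by low oxygen and by other stresses, had 22.5, 24.1 and 23.4 TPM in shCKAP2L libraries, against 55.3, 56.5 and 52.1 TPM in NC libraries of RKO. Every shCKAP2L library was far below every NC library, at a ratio of 0.427 (log2 change -1.19 ± 0.038, adjusted p = 1.31e-12). In HCT116, where levels were not tested against those of RKO, DDIT4 stood at 763.6, 778.6 and 773.2 TPM in CKAP2L libraries, against 580.8, 576.3 and 581.9 TPM in vector libraries. It rose there (log2 change 0.41 ± 0.026, adjusted p = 1.79e-07). The noncoding DDIT4-AS1 overlaps DDIT4 on the other strand.

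VEGFA, the growth factor for blood vessels (chr6:43770184-43786487, plus strand), had 110.4, 108.3 and 106.8 TPM in CKAP2L libraries, against 80.3, 81.7 and 85.2 TPM in vector libraries of HCT116. The groups did not overlap and VEGFA rose (log2 change 0.39 ± 0.036, adjusted p = 5.09e-06). In RKO it had 37.1, 37.9 and 38.5 TPM in shCKAP2L libraries, against 58.1, 60.5 and 57.4 TPM in NC libraries. It fell there (log2 change -0.62 ± 0.032, adjusted p = 2.16e-10). NDRG1, a stress-induced gene that low oxygen raises, moved the other way. In HCT116 NDRG1 had 203.8, 205.4 and 207.3 TPM in CKAP2L libraries, against 251.1, 245.9 and 260.4 TPM in vector libraries and fell without overlap (log2 change -0.30 ± 0.031, adjusted p = 1.85e-05). In RKO it averaged 59.44 ± 1.11 TPM with shCKAP2L and 55.66 ± 1.03 TPM with NC and rose slightly (log2 change 0.09 ± 0.030, adjusted p = 0.0115), a call lost without shCKAP2L replicate 2 (adjusted p = 0.0614).

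ADM, a peptide that widens blood vessels, had 38.8, 35.7 and 38.4 TPM in CKAP2L libraries, against 34.5, 33.7 and 34.0 TPM in vector libraries of HCT116. It rose (log2 change 0.14 ± 0.045, adjusted p = 0.0421), but not after any rescaling (adjusted p from 0.170 to 0.206) or without CKAP2L replicate 1 or 3 or vector replicate 1 or 2 (0.0782 to 0.166). ANKRD37, an ankyrin-repeat gene with a HIF site in its promoter, had 12.2, 11.9 and 12.4 TPM in CKAP2L libraries, against 9.37, 11.1 and 10.3 TPM in vector libraries of HCT116. It too rose (log2 change 0.23 ± 0.067, adjusted p = 0.0279), but not after rescaling (lowest adjusted p = 0.0746) or without any of the CKAP2L replicates or vector replicate 1 (0.0577 to 0.122). In RKO ADM averaged 10.43 ± 0.619 TPM with shCKAP2L and 10 ± 0.573 TPM with NC and ANKRD37 2.453 ± 0.284 TPM with shCKAP2L and 2.083 ± 0.153 TPM with NC, and neither passed (adjusted p = 0.378 and adjusted p = 0.0803), although ANKRD37 did after 2 of the rescalings (0.0347 and 0.0413).

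The remaining HIF targets did not pass in either line as deposited. P4HA1, a collagen prolyl hydroxylase, stood at 0.07 ± 0.039 in HCT116 and 0.08 ± 0.038 in RKO (adjusted p = 0.0699), where it passed as higher after each rescaling (0.00679 to 0.0144) or without NC replicate 1 (0.0367). KDM3A, a histone demethylase, stood at -0.07 ± 0.057 in HCT116 and -0.06 ± 0.046 in RKO, where it passed as lower only without NC replicate 3 (adjusted p = 0.0458). BNIP3, a mitophagy receptor, averaged 23.83 ± 1.06 TPM with CKAP2L and 24.25 ± 2.06 TPM with vector in HCT116, and was close to the filter in RKO, with 1.02, 1.43 and 1.03 TPM in shCKAP2L libraries, against 0.79, 1.28 and 1.11 TPM in NC libraries. GENCODE 29 names 39 pseudogenes after BNIP3. EGLN3, the hydroxylase that HIF itself induces, averaged 7.413 ± 0.179 TPM with CKAP2L and 7.223 ± 0.129 TPM with vector in HCT116, at 0.03 ± 0.066. In RKO it had 0.05, 0.11 and 0.11 TPM in shCKAP2L libraries, against 0.19, 0.08 and 0.13 TPM in NC libraries, and its share of the EGLN family was 25.4% with CKAP2L and 24.8% with vector in HCT116 but under 1% in every RKO library. CA9, a cell surface carbonic anhydrase widely used as a marker of hypoxia, had 0.80, 0.21 and 0.80 TPM in CKAP2L libraries, against 0.47, 0.57 and 0.15 TPM in vector libraries of HCT116. In RKO CA9 averaged 4.1 ± 0.345 TPM with shCKAP2L and 4.037 ± 0.624 TPM with NC and did not pass (log2 change 0.02 ± 0.085, adjusted p = 0.816). CA9 was thus below 5 TPM in all 12 libraries.

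Set side by side, 31 members were tested in both lines. The percentages of genes given beside them are for TPM as deposited. VEGFA, DDIT4 and HIF1A rose with CKAP2L in HCT116 and fell with shCKAP2L in RKO, as did 7.32% of the 11024 genes tested in both. The reverse, a fall with CKAP2L and a rise with shCKAP2L, was seen for 5 members (HK1, PFKP, GAPDH, ENO2 and NDRG1), against 0.943% of genes. Of those 5, only PFKP and ENO2 kept their calls in both lines in all 15 alternative settings. In some settings HK1 and GAPDH lost their calls in HCT116, and GAPDH and NDRG1 in RKO. LDHA, ALDOA and PGAM1 fell in both, against 2.40%. By limma's adjusted p 0 members rose in both, against 5.15%, and 1 did at an unadjusted p under 0.05.

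The sum of both changes, (CKAP2L minus vector) plus (shCKAP2L minus NC), is 0 for a gene that moved equally far in opposite directions. It differed from 0 for 22 of 31 members, 10 above and 12 below, against 54.5% of all genes, 27.6% above and 27.0% below. Cell line, kind of manipulation and its strength differ together between the lines and cannot be told apart in it. The sum was largest for HK1 (0.93 ± 0.050, adjusted p = 4.93e-11), ENO1 (0.93 ± 0.036, adjusted p = 6.54e-13) and DDIT4 (-0.78 ± 0.045, adjusted p = 1.43e-10). For GAPDH, whose changes were small and opposite, it was 0.00 ± 0.040 (adjusted p = 0.928).

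Of 36 further targets tested in HCT116, 9 rose and 1 fell, at a median of 0.07, and the 27.8% that passed stood beside 20.6% of all genes. STC2, a secreted glycoprotein (150.7 TPM with CKAP2L and 106.8 TPM with vector, log2 change 0.49 ± 0.036, adjusted p = 5.14e-07), and HMOX1, heme oxygenase (127.6 TPM with CKAP2L and 95.24 TPM with vector, log2 change 0.42 ± 0.036, adjusted p = 3.16e-06), rose. Of 34 tested in RKO, 16 rose and 10 fell, at a median of 0.12, and the 76.5% that passed stood beside 68.5% of all genes. There HMOX1 rose with the knockdown (190.9 TPM with shCKAP2L and 73.14 TPM with NC, log2 change 1.37 ± 0.025, adjusted p = 8.82e-15), as did GBE1, the glycogen branching enzyme (35.93 TPM with shCKAP2L and 17.03 TPM with NC, log2 change 1.04 ± 0.037, adjusted p = 4.56e-12), and BHLHE40, a transcriptional repressor (245.9 TPM with shCKAP2L and 164.0 TPM with NC, log2 change 0.58 ± 0.023, adjusted p = 1.26e-11). SLC16A3 (MCT4), the lactate exporter that HIF induces, was picked out after its values were seen. It rose in RKO (79.30 TPM with shCKAP2L and 42.51 TPM with NC, log2 change 0.89 ± 0.037, adjusted p = 1.79e-11). BHLHE40 rose in HCT116 as well (119.8 TPM with CKAP2L and 98.76 TPM with vector, log2 change 0.28 ± 0.036, adjusted p = 0.000123). There GBE1 (0.09 ± 0.049, adjusted p = 0.213) and SLC16A3 (0.02 ± 0.029, adjusted p = 0.632) did not pass.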

How the data were processed

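Total RNA of 12 samples of HCT116 and RKO was made into mRNA libraries, per the labels' protocols. Tools named in the submitters' processing notes are FastQC 0.11.2, Trimmomatic 0.36, HISAT2 2.0 and bedtools 2.26.0 with GRCh38; no source used here gives the counting tool, annotation or strand setting. The authors deposited TPM per gene, 1 table per line, so depth is unknown. Identifiers were named with a gene table (20148 of 20263) or GENCODE 29 (76). Each line was fitted alone with limma 3.58.1 (R 4.3.3, trended prior) on log2(TPM + 1), mean TPM of at least 1, two-sided, adjusted over all genes. A joint fit of all libraries gave the sum of changes. Isozyme shares used exact permutation tests. The fits were tested on simulated data. The members and lists were chosen with earlier results of these data known. All members are named, and of other lists up to 3 genes per line with the smallest adjusted p and a mean TPM of at least 5; a gene that this rule names is not reported here. Alternatives were other pseudocounts, filters, scalings and priors, a replicate block and leaving out libraries.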

Additional observations from a re-analysis of the deposited data

Results flagged for a closer look

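The changes in the 2 lines were compared by testing their sum, which is 0 where knockdown in RKO moved a gene as far as overexpression in HCT116 did, the other way. By limma's adjusted p the sum differed from 0 for 22 members. Line and manipulation cannot be told apart in these values.

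The sum was above 0 for 10 members. Among glycolytic enzymes it was 0.93 for HK1, 0.93 for ENO1, 0.48 for HK2, 0.47 for ENO2, 0.24 for PFKL and 0.21 for PFKP. Of these HK1, ENO2 and PFKP had fallen with CKAP2L and risen further with shCKAP2L. Among regulators and targets it was 0.22 for PFKFB4, 0.39 for ANKRD37, 0.19 for ADM and 0.15 for P4HA1. In those 4 genes both changes had a positive sign, although only PFKFB4 passed in RKO and only ADM and ANKRD37 in HCT116.

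The sum was below 0 for 12 members. It was -0.78 for DDIT4, -0.23 for VEGFA and -0.21 for HIF1A, which fell further with shCKAP2L than they rose with CKAP2L. It was -0.52 for LDHA, -0.46 for PGAM1 and -0.33 for ALDOA, which fell in both lines. It was -0.37 for PDK1 and -0.11 for TPI1, which fell in RKO by the test, and -0.20 for NDRG1, which fell in HCT116 by more than it rose in RKO. For SLC2A1 it was -0.14, for GPI -0.11 and for PKM -0.09.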

How the results depend on the processing

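Depth is unknown, groups hold 3 libraries, and small changes near the threshold depend on the settings. In HCT116, 9 of 15 calls held in all 15 alternatives (HIF1A, PFKP, ALDOA, PGAM1, ENO2, LDHA, VEGFA, NDRG1 and DDIT4), and in RKO 16 of 19, all but ALDOC, GAPDH and NDRG1; no called member reversed. Members higher in HCT116 numbered 3 rather than 5 with no filter on low values, median-of-ratios rescaling, quantile normalization or without mitochondrially encoded genes, and members lower numbered 6 rather than 10 with an untrended prior variance. Leaving out 1 library gave 3 to 6 higher, 6 to 10 lower and 9 to 16 in all in HCT116. The cause was not tested. Rescaling shifted the median of all genes by at most 0.05 on the log2 scale, and in RKO gave 12 members higher and 10 lower, with 3793 and 4205 genes higher and lower against 3019 and 4819 as deposited.

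Same-numbered libraries did not deviate together (correlations from -0.09 to 0.05), which with 3 libraries a group cannot show whether they share more than a number. With the replicate block, 4 members were higher and 7 lower in HCT116 and 9 and 10 in RKO, and all genes higher and lower numbered 1761 and 439, and 3024 and 4837. Of 234 recomputed isozyme shares, 5 moved by more than 1 SD.

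Some members near 0 changed sign, none of them called. With median-of-ratios rescaling these were PFKM -0.03, TPI1 -0.01, PFKFB3 -0.05 and EGLN3 -0.02 in HCT116 and GPI 0.01, PGK1 0.03, PKM 0.04 and SLC2A1 0.00 in RKO. With quantile normalization they were PFKM 0.00, PFKFB3 -0.04 and EGLN3 -0.04 in HCT116 and GPI 0.04, PGK1 0.06, LDHB -0.05, SLC2A1 0.03, CA9 -0.01 and BNIP3 -0.02 in RKO, of which PGK1 (adjusted p = 0.0137) and LDHB (adjusted p = 0.00223) passed. Without mitochondrially encoded genes they were PFKM -0.02, PFKFB3 -0.03 and EGLN3 -0.01 in HCT116 and GPI 0.00, PGK1 0.02 and PKM 0.03 in RKO. Leaving out 1 library in turn gave ranges across 0 in HCT116 for LDHB (-0.04 to 0.01), BNIP3 (-0.06 to 0.04), PFKFB3 (-0.01 to 0.03), PFKL (-0.04 to 0.00) and PDK1 (-0.06 to 0.01), and in RKO for LDHB (-0.01 to 0.02), CA9 (-0.08 to 0.09), BNIP3 (-0.03 to 0.15) and PKM (-0.02 to 0.01). Without a filter CA9 stood at 0.19 in HCT116 (adjusted p = 0.569) and EGLN3 at -0.06 in RKO (0.329). Of 955 refitted member values, 838 kept direction and call, 24 newly passed, 55 no longer passed and 38 changed sign.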

Other observations

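Pathways that branch from glycolysis were also read, as values with no explanation. Over all genes 16.4% were higher and 4.26% lower in HCT116, and 26.4% higher and 42.1% lower in RKO. The shares of each set that passed in RKO ran from 61.5 to 76.5%, near the 68.5% of all genes. Of 10 pentose phosphate genes, 7 fell and 0 rose by limma's adjusted p in RKO with shCKAP2L, and 0 were higher at an unadjusted p under 0.05, at a median of -0.15. TALDO1, transaldolase, fell (142.3 TPM with shCKAP2L and 249.0 TPM with NC, log2 change -0.80 ± 0.026, adjusted p = 1.37e-12), as did TKT, transketolase (262.1 TPM with shCKAP2L and 364.0 TPM with NC, log2 change -0.47 ± 0.023, adjusted p = 1.34e-10), and PRPS1, which makes the ribose donor of nucleotides (89.15 TPM with shCKAP2L and 121.0 TPM with NC, log2 change -0.44 ± 0.027, adjusted p = 1.50e-09). In HCT116 4 of the 10 rose and 3 fell, at a median of 0.06. Of 17 genes of the citric acid cycle, 7 fell and 0 rose in HCT116 with CKAP2L (1 was higher at an unadjusted p under 0.05), and 7 rose and 6 fell in RKO. SDHA, a subunit of succinate dehydrogenase, fell in HCT116 (141.9 TPM with CKAP2L and 169.0 TPM with vector, log2 change -0.25 ± 0.034, adjusted p = 0.000206).

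Of 20 genes of lactate and pyruvate handling, 7 rose and 1 fell in HCT116, ME1, a malic enzyme, among them (55.48 TPM with CKAP2L and 42.64 TPM with vector, log2 change 0.37 ± 0.045, adjusted p = 6.08e-05), and 6 of 19 rose and 6 fell in RKO. There PDHX and PDHB, both of the pyruvate dehydrogenase complex, moved apart, at log2 fold changes of -0.43 ± 0.031 and 0.35 ± 0.029. Of 12 other glycolytic isozymes, 2 rose and 1 fell in HCT116 and 4 rose and 4 fell in RKO, where BPGM, bisphosphoglycerate mutase, fell (15.24 TPM with shCKAP2L and 24.31 TPM with NC, log2 change -0.64 ± 0.045, adjusted p = 7.03e-09). Of the few gluconeogenesis genes, 2 of 4 rose in HCT116, and 1 of 3 rose and 1 fell in RKO. Of 13 genes around mTORC1 restraint and ATF4, 3 rose and 0 fell in HCT116 (0 were lower at an unadjusted p under 0.05), and 2 rose and 6 fell in RKO. DDIT3, a stress-induced transcription factor, rose in HCT116 (155.2 TPM with CKAP2L and 105.7 TPM with vector, log2 change 0.55 ± 0.036, adjusted p = 2.15e-07) and fell in RKO (47.86 TPM with shCKAP2L and 71.10 TPM with NC, log2 change -0.56 ± 0.033, adjusted p = 8.25e-10). SESN2, which also restrains mTORC1, did likewise (0.36 ± 0.041 and -0.52 ± 0.028). ATF4 did not pass in HCT116 (711.7 TPM with CKAP2L and 706.6 TPM with vector, log2 change 0.01 ± 0.029, adjusted p = 0.835). It fell in RKO (376.4 TPM with shCKAP2L and 498.1 TPM with NC, log2 change -0.40 ± 0.025, adjusted p = 1.85e-09).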
